A study of Mus musculus with 16 samples.

Results

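The mouse region that corresponds to the human locus for LDL cholesterol at CELSR2, PSRC1 and SORT1 was described in livers of mice with and without Arglu1 in hepatocytes. The 6 genes of the locus are Atxn7l2, Psma5, Sort1, Mybphl, Psrc1 and Celsr2, which are neighbours on chromosome 3, out of 15119 genes in the deposited counts table and 35712 in the second deposited table. The set was chosen by position, but the locus was proposed after the genotype differences of Psrc1 and Sort1 in these libraries had been seen. It was thus selected on the comparisons of LKO with WT, and the genotype differences of the 6 genes are given as a description with no test. Of the 6 genes, 5 were in the counts table and all 5 passed the filter on low counts. Mybphl was read from the second table.

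Poly(A) RNA was sequenced from livers of female mice of 2 genotypes, wild type (WT) and a hepatocyte knockout (LKO) of Arglu1, a transcriptional coregulator and splicing factor. All mice were aged to 9 months on chow, and then for 12 weeks either stayed on chow or received the high-fat diet TD. 88137 (HFD). Each of the 4 groups (WT on chow, LKO on chow, WT on HFD, LKO on HFD) held 4 libraries with 19142612 to 25120565 estimated counts. The labels name neither the Cre driver nor the exons removed, and leave it unsaid whether the libraries came from separate animals, so all errors and tests measure only the spread among libraries. Arglu1 transcript was lower in all 8 LKO than in all 8 WT libraries, with means in CPM (counts scaled to the size of the library) of 14.7 against 41.2 on chow and 15.5 against 42.2 on HFD. The libraries held the RNA of whole liver, in which fewer cells of a type and less RNA per cell cannot be told apart. The 8 hepatocyte marker genes were above 0 in every group. On chow their summed CPM ranged from 92802 to 121914 over the WT libraries, overlapping the LKO libraries at 117928 to 129625. On HFD the WT libraries, at 69268 to 75561, all lay below the LKO libraries, at 89247 to 102919. Most of the sum in each group was Alb, which encodes albumin, with means on HFD of 49709 CPM in WT and 74383 CPM in LKO. Of the 8 genes, 0 rose and 2 fell in LKO on chow, and 1 rose (Alb) and 2 fell (Tat and Ttr) on HFD (edgeR, adjusted p of 0.05). The median log2 fold change of the 8 genes was -0.04 on chow and -0.03 on HFD. The part of these differences in the values of the locus was not tested. On the second principal component of log2 CPM (13.9% of the variance), LKO chow libraries 3 and 4 lay at 37.9 and 34.5 and LKO chow libraries 1 and 2 at -10.7 and -10.9, so values on chow without either pair are given beside the results.

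Sort1 encodes sortilin, a receptor with a VPS10 domain that carries proteins from the Golgi apparatus to endosomes and lysosomes. In hepatocytes it is known to bind apolipoprotein B and to affect how much very-low-density lipoprotein is secreted. Psrc1 encodes a proline- and serine-rich protein that binds microtubules and acts at the mitotic spindle, and its transcription is known to respond to p53. Celsr2 encodes an atypical cadherin with 7 transmembrane segments that belongs to the planar cell polarity pathway. Psma5 encodes an alpha subunit of the 20S proteasome, Mybphl a myosin-binding protein known from heart muscle, and Atxn7l2 a protein of the ataxin 7 family. The human locus is known for its association with LDL cholesterol and for the expression of these genes in liver.

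In GENCODE M21 (GRCm38, the assembly of the mm10 build that the submitters' processing notes name) the order from low to high coordinates is Atxn7l2 (108202222 to 108210934, minus strand), Psma5 (108256926 to 108279974, plus strand) and Sort1 (108284082 to 108361511, plus strand). They are followed by Mybphl (108364911 to 108380057, plus strand), Psrc1 (108383839 to 108388231, plus strand) and Celsr2 (108390851 to 108415552, minus strand). Atxn7l2 and Psma5 are 46.0 kb apart. The other genes lie close together, with gaps of 4.11 kb between Psma5 and Sort1, 3.40 kb between Sort1 and Mybphl and 3.78 kb between Mybphl and Psrc1. Psrc1 and Celsr2 point at each other, and their 3′ ends are 2.62 kb apart. Sort1 overlaps the antisense gene Gm12523 over 762 bases and Mybphl overlaps Gm12522 on the other strand over 781 bases. Whether the counting used strand is not given in the sources used here, so reads in these overlaps cannot be assigned to a strand.

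The promoters of Psrc1, Celsr2 and the neighbour Gnat2 are shown because Psrc1 and Celsr2 are the convergent pair whose means in LKO lay on opposite sides of WT and Gnat2 was the neighbour with the largest difference. They are taken from RefSeq (GRCm38.p6), which matched 5 of the 6 genes and gave no promoter for Sort1, and cover 250 bases before and 50 bases from the annotated start. The RefSeq start of Gnat2 lies downstream of its GENCODE start (108092789), so its window lies within the GENCODE gene. Capitals mark CCAAT or GGGCGG on either strand, so that ATTGG and CCGCCC are the same motifs read on the other strand. The Psrc1 sequence is chr3:108383588-108383887 on the plus strand, the Celsr2 sequence is chr3:108415530-108415829 on the minus strand, and the Gnat2 sequence is chr3:108092816-108093115 on the plus strand.
Psrc1: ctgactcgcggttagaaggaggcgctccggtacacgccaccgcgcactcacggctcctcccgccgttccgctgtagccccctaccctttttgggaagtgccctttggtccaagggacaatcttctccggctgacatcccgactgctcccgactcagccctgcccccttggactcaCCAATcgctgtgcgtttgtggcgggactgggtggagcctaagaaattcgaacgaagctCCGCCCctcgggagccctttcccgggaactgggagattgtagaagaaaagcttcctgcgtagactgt
Celsr2: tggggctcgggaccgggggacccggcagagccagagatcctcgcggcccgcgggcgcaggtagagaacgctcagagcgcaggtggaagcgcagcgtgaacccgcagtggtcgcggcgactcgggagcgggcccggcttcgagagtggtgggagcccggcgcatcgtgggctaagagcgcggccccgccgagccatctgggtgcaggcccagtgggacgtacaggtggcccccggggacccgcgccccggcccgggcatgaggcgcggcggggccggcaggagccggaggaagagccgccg
Gnat2: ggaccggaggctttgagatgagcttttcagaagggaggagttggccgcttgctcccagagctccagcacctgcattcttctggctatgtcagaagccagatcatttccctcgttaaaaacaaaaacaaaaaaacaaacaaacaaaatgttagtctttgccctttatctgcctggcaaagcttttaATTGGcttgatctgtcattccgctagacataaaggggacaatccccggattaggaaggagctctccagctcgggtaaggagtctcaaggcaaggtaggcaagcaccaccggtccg

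The Psrc1 promoter held 1 CCAAT and 1 GGGCGG motif and 23 CpG dinucleotides at a GC content of 61.0%. A start that RefSeq places further upstream (chr3:108383554-108383853) added a further CCAAT, for 2 in all. The Celsr2 promoter was richer in GC, at 76.3% with 40 CpG, and held neither motif. That of Gnat2 had 48.7% GC, 8 CpG and 1 CCAAT. Across all 32851 RefSeq promoters of the same length, 37.4% held CCAAT and 35.7% held GGGCGG, and the median was 7 CpG. Paired core half-sites of the p53 motif were in 7.22% of all promoters and in none of the 40 promoters of the region, which do not include Sort1. This says only that these letters are not in those windows.

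Psrc1 had the largest genotype difference of the locus. Its estimated count in the 4 WT libraries on chow was 2.57, 5.66, 7 and 6.18, and in the 4 LKO libraries on chow 734, 970, 874 and 639. In the same order these are 0.132, 0.237, 0.377 and 0.299 CPM in WT and 32.3, 37.4, 39.8 and 33.6 CPM in LKO. The transcript was thus close to the limit of detection in every WT library and plentiful in every LKO library, and no library lay between. On HFD the counts were 7.68, 16, 23.5 and 5 in WT and 531, 598, 679 and 744 in LKO, again without overlap. The means were 0.261 ± 0.103 CPM in WT and 35.8 ± 3.45 CPM in LKO on chow, and 0.583 ± 0.342 and 27.4 ± 2.83 CPM on HFD (SD, n = 4 each). The fitted log2 fold change of LKO against WT was 7.04 on chow (SE 0.266) and 5.50 on HFD (SE 0.235). The WT counts limit how well the ratio is known: the summed counts of 3217 in LKO against 21 in WT on chow gave a ratio of 141 per unit of library size, with an exact 95% interval of 92.3 to 229 that covers counting error only. On HFD, 2553 against 52 counts gave a ratio of 46.4 (35.3 to 62.3). Without LKO chow libraries 1 and 2 the fold change on chow was 7.07, and without libraries 3 and 4 it was 7.0.

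Sort1 stood at a low level in WT and was several-fold higher in LKO. On chow its level in the 4 WT libraries was 3.43, 3.44, 6.94 and 4.39 CPM, and in the 4 LKO libraries 27.8, 25.8, 21.2 and 23.5 CPM. On HFD it was 7.45, 2.16, 4.03 and 5.56 CPM in WT and 22.3, 22.3, 19.6 and 20.4 CPM in LKO. Every LKO library lay above every WT library, and the LKO libraries were closer to each other in relative terms than the WT libraries. The means were 4.55 ± 1.66 CPM in WT and 24.6 ± 2.85 CPM in LKO on chow, and 4.80 ± 2.24 and 21.2 ± 1.36 CPM on HFD (SD, n = 4 each). LKO exceeded WT by 2.44 on the log2 scale on chow (SE 0.274) and 2.14 on HFD (SE 0.270). It was 2.30 on chow without LKO chow libraries 1 and 2 and 2.57 without libraries 3 and 4. The summed counts gave a ratio of 5.54 on chow (2214 against 369 counts, exact 95% interval 4.96 to 6.20) and of 4.41 on HFD (1969 against 422 counts, 3.97 to 4.91). These intervals cover counting error only and leave out the spread between libraries.

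Celsr2, on the other side of Psrc1, was scarce in every group, and its means were lower in LKO than in WT. Its counts on chow were 5, 27, 27 and 11 in the WT libraries and 11, 7, 14 and 3 in the LKO libraries. On HFD they were 21, 5, 26 and 20 in WT and 4, 15, 7 and 4 in LKO. The genotypes overlapped on both diets, since 1 WT library on each diet had as few as 5 counts. The means were 0.843 ± 0.547 CPM in WT and 0.387 ± 0.215 CPM in LKO on chow, and 0.802 ± 0.376 and 0.314 ± 0.196 CPM on HFD (SD, n = 4 each). The fitted log2 fold change was -1.10 on chow (SE 0.560) and -1.33 on HFD (SE 0.569), and over the alternative settings it ran from -1.44 to -0.74 on chow and from -1.85 to -1.11 on HFD. It was -1.04 on chow without LKO chow libraries 1 and 2 and -1.16 without libraries 3 and 4. From the summed counts the ratio of LKO to WT was 0.461 on chow (35 against 70 counts, exact 95% interval 0.298 to 0.702) and 0.394 on HFD (30 against 72 counts, 0.248 to 0.610), intervals that leave out the spread between libraries.

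**Figure D1:**
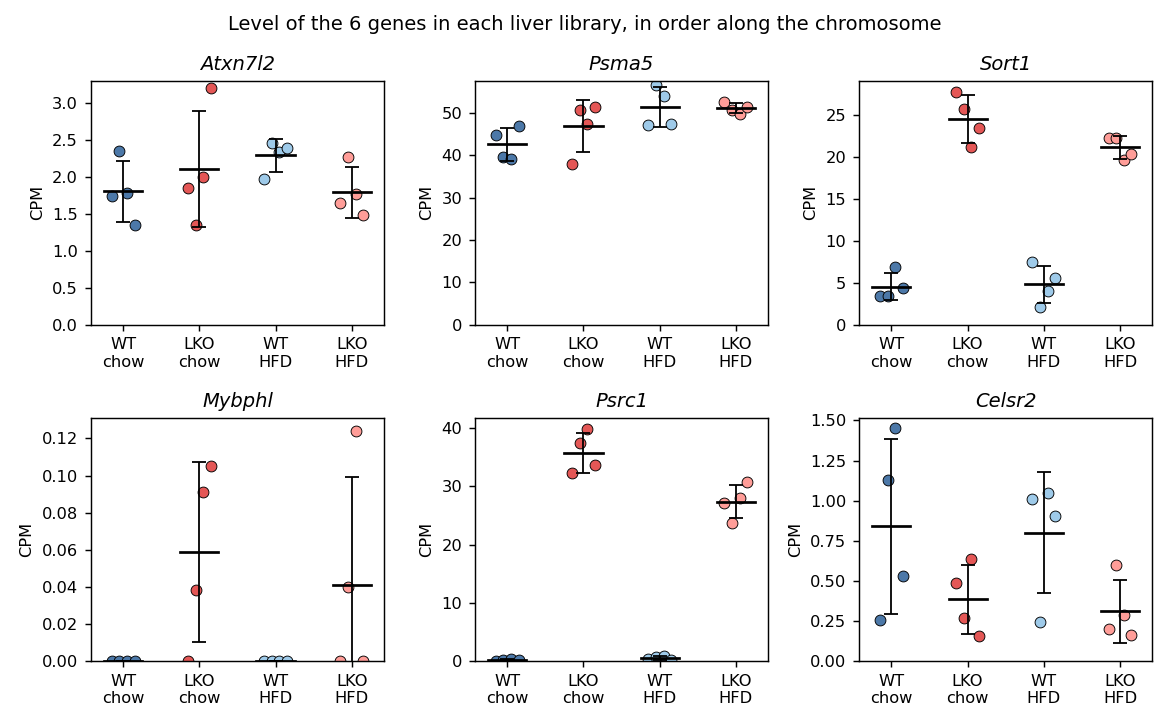
Level of each gene of the locus in CPM (linear axes from 0, a different scale in each panel) in the 16 liver libraries, with points for libraries, horizontal lines for group means and error bars for the SD (n = 4 each). Psrc1 and Sort1 were higher in every LKO library than in any WT library on both diets, whereas the genotypes overlapped for Atxn7l2, Psma5 and Celsr2 and Mybphl was at 0 in all WT libraries.

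Mybphl was at 0 in all 8 WT libraries, which allows a level of up to 0.0363 CPM on chow and 0.0341 CPM on HFD over the group (3 counts of the summed totals). In LKO on chow its counts were 0, 1, 2 and 2, and in LKO on HFD 0, 1, 3 and 0. Over both diets this was 9 counts in 5 of 8 LKO libraries against 0 counts in all 8 WT libraries. The summed counts of 5 and 4 are just above the 3 counts that a count of 0 allows, so the size of the difference could not be measured at this depth and no fold is given.

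The remaining members, Psma5 and Atxn7l2, lie on the far side of Sort1. Psma5 had the highest level per exon length of the locus and ranged from 39.2 to 46.8 CPM in WT and from 38.0 to 51.3 CPM in LKO on chow, and from 47.2 to 56.6 and 49.8 to 52.6 CPM on HFD. Its log2 fold change between genotypes was 0.14 on chow (SE 0.0999) and -0.01 on HFD (SE 0.0995), and on chow 0.21 without LKO chow libraries 1 and 2 and 0.06 without libraries 3 and 4. Atxn7l2 ranged from 1.35 to 2.35 CPM in WT and from 1.35 to 3.2 CPM in LKO on chow, and from 1.97 to 2.46 and 1.48 to 2.27 CPM on HFD. Between genotypes it differed by 0.20 on the log2 scale on chow (SE 0.253) and -0.35 on HFD (SE 0.25), and -0.18 on chow without LKO chow libraries 3 and 4. Libraries of the 2 genotypes overlapped for both genes on both diets. Psrc1 and Sort1 were thus the 2 of the 5 genes whose libraries did not overlap between genotypes, and they were so on both diets. Of the 23 tested neighbours within 500 kb, 8 did not overlap on chow and 8 on HFD. The share of all genes without overlap was not counted, so nothing is read from these counts. The shares that follow are of genes passing a test, which is a different measure. Over all 14434 genes tested, 24.7% passed an adjusted p of 0.05 between genotypes on chow (edgeR) and 5.15% passed at 2-fold or more upward, and on HFD these shares were 17.9% and 3.97%. Since the locus was chosen with the differences of Psrc1 and Sort1 in view, nothing about it is read from the count of 2 of 5.

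Levels can be compared between the genes only per length of exon. As CPM per kilobase of exon (RPKM), the order in WT on chow was Psma5 (32.2), Sort1 (0.601), Atxn7l2 (0.365), Psrc1 (0.0776), Celsr2 (0.0732) and Mybphl (0). In that order the libraries of Sort1 and Atxn7l2 overlapped, as did those of Psrc1 and Celsr2, and the other neighbours did not. In LKO on chow Psrc1 took the second place at 10.6 RPKM, ahead of Sort1 at 3.25 and Atxn7l2 at 0.425 RPKM, with no overlap between neighbours down to that point. Mybphl (0.0460 RPKM) and Celsr2 (0.0337 RPKM) came last and overlapped. The order was the same on HFD within each genotype. Among 14086 tested genes with an exon length, Psrc1 went from percentile 2.99 in WT to percentile 77.8 in LKO on chow, and from 7.82 to 72.6 on HFD. Sort1 went from 21.5 to 51.3 on chow and from 21.2 to 47.8 on HFD, while Psma5 was between 90.8 and 92.4 in all groups.

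**Figure D2:**
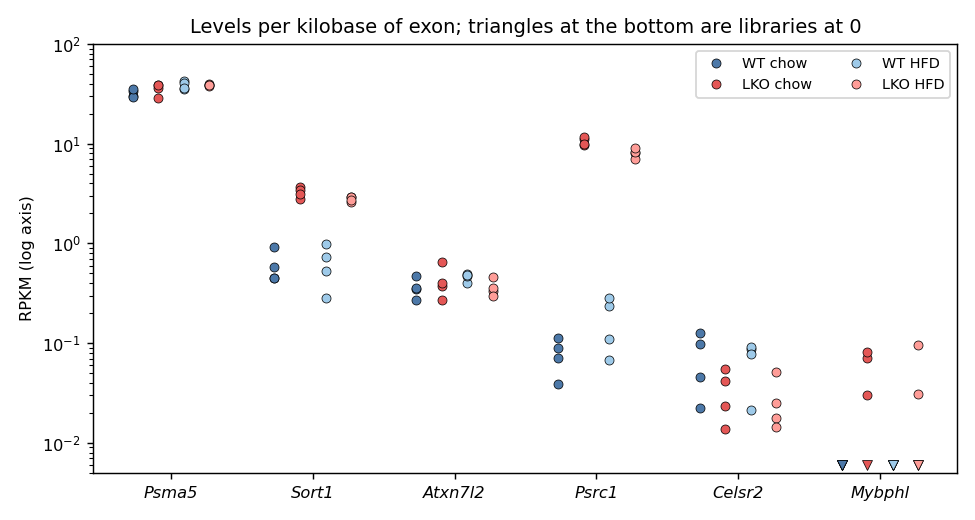
Levels of the genes of the locus per kilobase of exon (RPKM, log axis) in each of the 16 libraries, with 1 column of points per group (n = 4 each) and triangles at the bottom edge for libraries at 0. In WT Psrc1 lay among the lowest genes with Celsr2 (0.0776 and 0.0732 RPKM on chow), and in LKO it lay between Psma5 and Sort1 at 10.6 RPKM on chow.

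Diet was not used to choose the genes, and it was tested within each genotype. None of the 5 genes tested passed in either genotype (edgeR, adjusted p of 0.05), against 2.04% of all genes in WT and 2.22% in LKO. At an unadjusted p below 0.05, 2225 genes of the 14434 passed in WT and 2544 in LKO, Psrc1 among both and Psma5 among those in WT. Sort1 differed little by diet, with a log2 fold change of HFD against chow of 0.08 in WT (SE 0.282, adjusted p = 0.932, edgeR) and -0.22 in LKO (SE 0.248, adjusted p = 0.695). For Celsr2 the values were -0.06 in WT (SE 0.517, adjusted p = 0.973) and -0.29 in LKO (SE 0.616, adjusted p = 0.848), with overlap between libraries in both genotypes. Psma5 had all 4 WT libraries on HFD above all 4 on chow, with a log2 fold change of 0.27 (adjusted p = 0.184, SE 0.0999), and overlapped in LKO (0.13, SE 0.0996, adjusted p = 0.547). Atxn7l2 stood at 0.34 in WT (SE 0.251, adjusted p = 0.589) and -0.22 in LKO (SE 0.251, adjusted p = 0.697).

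Psrc1 was the member with the largest diet values, and they had opposite signs in the 2 genotypes. In WT its log2 fold change of HFD against chow was 1.15 (SE 0.387, edgeR adjusted p = 0.141), with the HFD libraries 1 and 4 (0.369 and 0.226 CPM) within the range of the chow libraries and libraries 2 and 3 (0.789 and 0.95 CPM) above it. In LKO it was -0.39 (SE 0.166, adjusted p = 0.231), and all 4 HFD libraries (27.1, 23.8, 28.0 and 30.7 CPM) lay below all 4 chow libraries. Neither change passed the test. Psrc1 passed the filter on low counts only through its LKO libraries, on whose difference from WT the locus was chosen. Its test in WT rests on 2.57 to 7 counts per library on chow and 5 to 23.5 on HFD. Nothing is therefore read from the diet test of Psrc1 in WT, with or without all libraries. Without WT HFD replicate 4 the value in WT became 1.42 and passed (adjusted p = 0.0383), and limma voom with quality weights gave -0.42 in LKO with an adjusted p of 0.0310. The interaction, which is the difference between the diet changes of the genotypes, was -1.54 for Psrc1 (SE 0.420, edgeR adjusted p = 0.395, and 0.00188 before adjustment). It is also the difference between the 2 genotype differences (5.50 on HFD and 7.04 on chow) with which the locus was chosen. Its p is thus not independent of that choice. The WT level behind it came from 21 summed counts on chow and 52 on HFD. Among 28 alternatives it passed in 2, DESeq2 (adjusted p = 0.0493) and the fit without LKO chow libraries 1 and 2 (-1.57, adjusted p = 0.0422). That fit was chosen after seeing the data. None of the 5 genes passed the interaction in edgeR, against 0.0208% of all genes (3 of 14434, and 1263 at an unadjusted p below 0.05). The other members had interaction values of -0.30 (Sort1, edgeR adjusted p = 0.818), -0.22 (Celsr2, adjusted p = 0.941), -0.14 (Psma5, adjusted p = 0.761) and -0.56 (Atxn7l2, adjusted p = 0.647).

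The neighbours on both sides were chosen by position alone and were tested. The annotation holds 62 other genes within 500 kb of the locus, 28 of them protein-coding, and 23 were in the counts table and tested. On chow, 8 of the 23 passed (34.8%, against 24.7% of all genes), 5 higher and 3 lower in LKO, and the median log2 fold change of the 23 was 0.20 against 0.023 for all genes. On HFD, 4 of 23 passed (17.4%, against 17.9% of all genes), with a median of 0.19 against -0.0062. At 2-fold or more upward, 3 of 23 passed on chow (13%, against 5.15% of all genes) and 2 on HFD (8.70%, against 3.97%). The genes immediately beside the locus were not among them. Cyb561d1, a cytochrome b561 family gene next to Atxn7l2, stood at 0.21 on chow (SE 0.112, edgeR adjusted p = 0.196) and 0.26 on HFD (adjusted p = 0.114, SE 0.111), and Sars, the seryl-tRNA synthetase next to Celsr2, at 0.07 (SE 0.102, adjusted p = 0.662) and 0.13 (SE 0.102, adjusted p = 0.446).

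**Figure D3:**
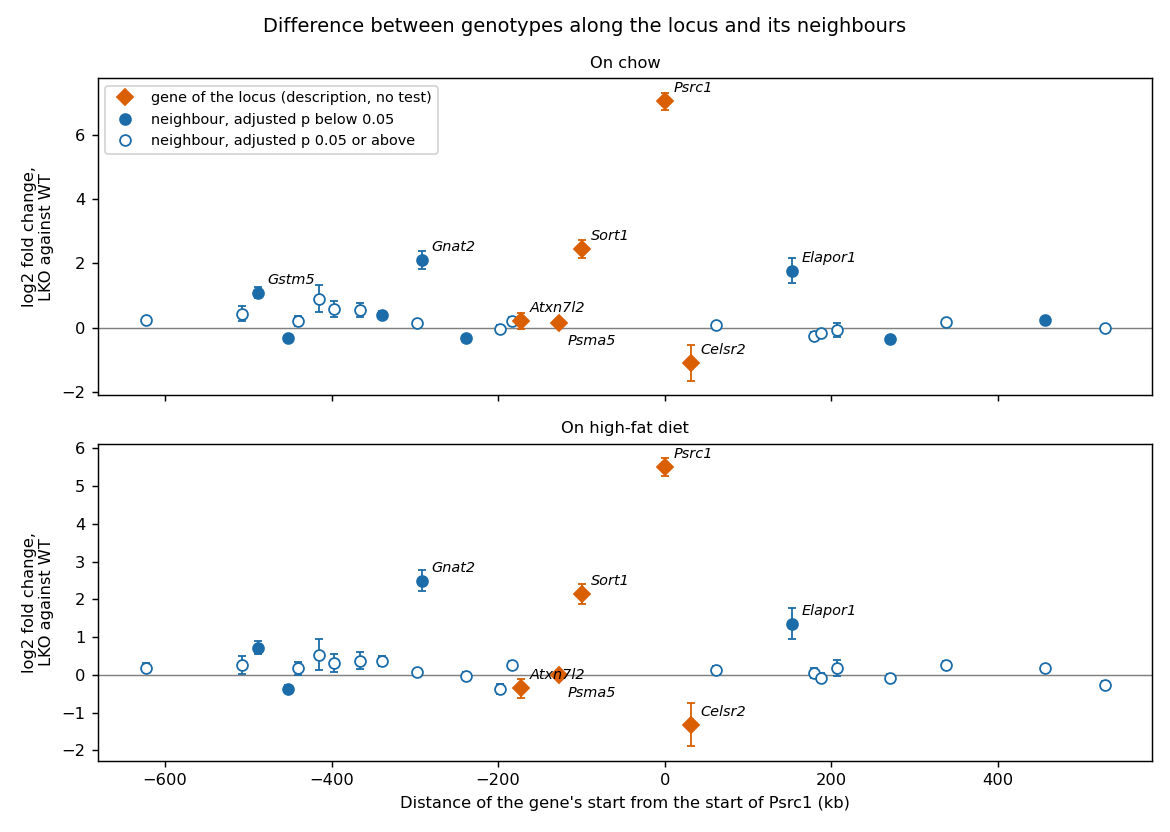
Log2 fold change of LKO against WT by the distance of each gene's start from the start of Psrc1 in kb. Diamonds are the 5 tested genes of the locus. Circles are the 23 tested neighbours, filled where the adjusted p is below 0.05. Error bars are the SE derived from the edgeR F statistic. Psrc1 stands highest at 7.04 on chow and 5.50 on HFD, genes with values near 0 lie between it and the raised neighbours Gnat2 and Elapor1, and Celsr2 lies lowest at -1.10 and -1.33.

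Gnat2, the alpha subunit of the G protein transducin of cone photoreceptors, had the largest difference among the neighbours, and its start lies 291 kb below that of Psrc1 (chromosome 3, 108092789 to 108101432). Its levels on chow were 0.460, 0.461, 0.538 and 0.531 CPM in WT and 1.92, 2.16, 1.91 and 2.52 CPM in LKO, and on HFD 0.192, 0.295, 0.645 and 0.542 CPM in WT and 2.81, 2.31, 2.17 and 2.39 CPM in LKO. All 8 LKO libraries lay above all 8 WT libraries. It rose by 2.09 on the log2 scale on chow (SE 0.279, adjusted p = 3.66e-05) and by 2.49 on HFD (edgeR adjusted p = 7.34e-06, SE 0.281). The value on chow was 2.14 without LKO chow libraries 1 and 2 and 2.03 without libraries 3 and 4. At 0.711 RPKM in LKO on chow it still stood at percentile 21.5 of the tested genes.

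Elapor1, an endosome- and lysosome-associated regulator of autophagy (chromosome 3, 108455694 to 108536536), starts 153 kb above Psrc1. Its levels on chow were 0.678, 1.47, 1.72 and 1.21 CPM in WT and 4.49, 5.44, 4.46 and 2.89 CPM in LKO, without overlap, and it rose by 1.77 on the log2 scale (SE 0.394, edgeR adjusted p = 0.00334). On HFD it was 1.49, 0.688, 1.41 and 0.903 CPM in WT and 1.84, 2.36, 5.80 and 1.56 CPM in LKO, also without overlap. LKO library 3 stood well above the others there, and the rise of 1.36 (SE 0.399, adjusted p = 0.0241) was lost without it (0.77, adjusted p = 0.133), without WT HFD replicate 2 (1.19, adjusted p = 0.0700) and without WT HFD replicate 4 (1.27, adjusted p = 0.0719). Elapor1 overlaps 1700013F07Rik on the other strand over 2387 bases. Its rise on chow was 1.53 without LKO chow libraries 1 and 2 and 1.97 without libraries 3 and 4.

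The cluster of mu-class glutathione S-transferases, which conjugate glutathione to drugs and toxins, gave 7 of the 23 neighbours. Gstm5, 488 kb below Psrc1, rose from a mean of 7.25 ± 1.13 to 15.3 ± 3.62 CPM on chow (log2 fold change 1.08, SE 0.175, edgeR adjusted p = 0.000228) and from 7.01 ± 1.42 to 11.5 ± 0.886 CPM on HFD (0.71, SE 0.174, adjusted p = 0.00804; SD, n = 4 each). Its rise on chow was 1.34 without LKO chow libraries 1 and 2 and 0.77 without libraries 3 and 4. Gstm7 fell by 0.32 on chow (adjusted p = 0.0153) and by 0.36 on HFD (adjusted p = 0.00929). The fall on chow did not pass without WT chow replicate 4 (adjusted p = 0.0568) or without LKO chow libraries 1 and 2 (adjusted p = 0.0602). Gstm4 rose by 0.40 on chow (adjusted p = 0.0262), a call lost without any 1 of WT chow replicates 1 and 2 and LKO chow replicates 1 and 3 (adjusted p = 0.0513 to 0.0823) and without LKO chow libraries 3 and 4 (0.32, adjusted p = 0.164), and kept without libraries 1 and 2 (0.48, adjusted p = 0.0152). It stood at 0.37 on HFD (adjusted p = 0.0505). Gstm1, Gstm2, Gstm3 and Gstm6 had values of 0.20 to 0.90 on chow and did not pass. These genes are near-identical copies in part, and how the counting split reads between them is not given in the sources used here, so single members are uncertain.

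**Figure D4:**
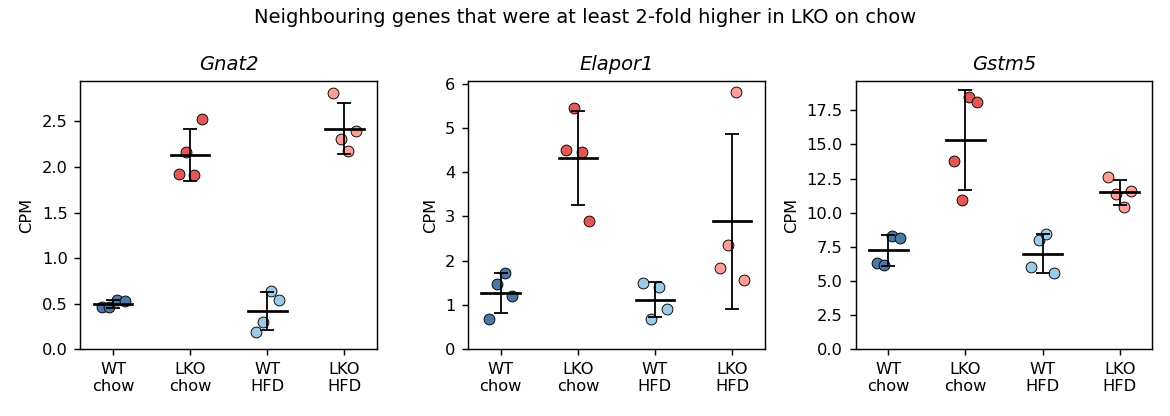
Levels in CPM (linear axes from 0, a different scale in each panel) of the 3 neighbours at least 2-fold higher in LKO on chow, with points for the 16 libraries, lines for group means and error bars for the SD (n = 4 each). The genotypes did not overlap for any of the 3 on either diet. On HFD the lowest LKO library of Elapor1 (1.56 CPM) lay just above the highest WT library (1.49 CPM), and its LKO mean was raised by 1 library at 5.80 CPM.

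The other neighbours that passed on chow changed less. Gnai3, an inhibitory G protein alpha subunit beside Gnat2, fell by 0.32 on the log2 scale (SE 0.10, edgeR adjusted p = 0.0251), a call lost without WT chow replicate 3 or without LKO chow replicate 3 or 4 (adjusted p = 0.0834 to 0.0912), and by 0.14 with an adjusted p of 0.321 without both of the latter. Clcc1, a chloride channel protein of the endoplasmic reticulum, fell by 0.37 (SE 0.0827, adjusted p = 0.00355), and by 0.36 and 0.37 without LKO chow libraries 1 and 2 or 3 and 4. Its last 203 bases overlap Gpsm2 on the other strand. Stxbp3, a syntaxin-binding protein, rose by 0.24 (SE 0.0789, adjusted p = 0.0356). That call was lost without any 1 of WT chow replicates 1, 2 and 4 and LKO chow replicates 3 and 4 (adjusted p = 0.0582 to 0.0942) and without both of the latter (0.21, adjusted p = 0.144). Without LKO chow libraries 1 and 2 it was 0.26 (adjusted p = 0.0425). Diet changed 1 of the 23 neighbours in LKO and 0 in WT (edgeR, against 2.22% and 2.04% of all genes, with 7 and 2 neighbours at an unadjusted p below 0.05). In LKO on HFD Amigo1, a leucine-rich repeat adhesion protein, fell from levels of 11, 12.8, 12.3 and 11.4 CPM to 7.0, 7.0, 6.59 and 8.62 CPM, with a log2 fold change of -0.70 (adjusted p = 0.00880, SE 0.131). In WT its value was -0.37 (adjusted p = 0.161), and the interaction did not pass (-0.33, adjusted p = 0.616).

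Of the protein-coding neighbours that were not tested, Sypl2, a membrane protein known from the triad junctions of skeletal muscle that lies between Atxn7l2 and Psma5, had 46 counts in LKO HFD replicate 2, 10 in WT HFD replicate 4 and 0 to 4 in each of the other 14 libraries. The summed level of 8 striated muscle markers moved with it, at 337 CPM in LKO HFD replicate 2, 32.8 CPM in WT HFD replicate 4 and 0.559 to 3.42 CPM elsewhere. The part of muscle RNA in other values was not tested. Without LKO HFD replicate 2 the genotype difference on HFD was 5.56 for Psrc1 and 2.11 for Sort1. Gpr61, an orphan receptor, had 1 to 7 counts per group. Among markers of other liver cells, none of the 7 Kupffer cell and macrophage, 6 endothelial, 7 stellate cell and fibroblast or 7 lymphocyte genes passed between genotypes on either diet (edgeR, with at most 1 per list and diet at an unadjusted p below 0.05). The part of these cells in the values of the locus was not tested.

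For the lists that follow, the shares of genes passing are to be read against the 24.7% of all genes on chow and 17.9% on HFD. Of 14 sorting adaptors and retromer subunits tested, 1 rose and 3 fell on chow (28.6% passing) and 2 rose and 2 fell on HFD (28.6%), and their median log2 fold change was -0.06 on chow and 0.0 on HFD. The retromer subunits Vps35 (-0.65, SE 0.122, edgeR adjusted p = 0.000862) and Vps26a (-0.58, SE 0.0844, adjusted p = 8.65e-05) fell on chow, and both also fell on HFD, by 0.39 and 0.40. The mannose 6-phosphate receptor Igf2r, which also brings enzymes to lysosomes, rose on HFD (0.54, SE 0.116, adjusted p = 0.00312). On chow Igf2r did not pass (0.13, edgeR adjusted p = 0.461). The other mannose 6-phosphate receptor, M6pr, fell on chow (-0.27, adjusted p = 0.0203) and did not pass on HFD (-0.09, adjusted p = 0.508). Of 17 genes of apolipoprotein B assembly and uptake, 1 rose and 7 fell on chow (47.1% passing), with a median of -0.26, and 1 fell on HFD (5.88%), with a median of -0.11. Sar1b, a GTPase of the vesicles that leave the endoplasmic reticulum, fell on both diets (-0.61, adjusted p = 9.50e-05, and -0.48, adjusted p = 0.000945). The triglyceride transfer protein Mttp fell on chow (-0.52, adjusted p = 0.00841) and stood at -0.11 on HFD, where it did not pass. The only other VPS10 receptor with enough counts did not pass on either diet (0.28 and 0.44).

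Of 12 spindle and microtubule genes beside Psrc1, 2 rose on chow (16.7%, below the share of all genes) and 1 fell on HFD (8.33%, likewise below it). Kif2c, a microtubule-depolymerising kinesin, rose on chow (1.51, SE 0.452, edgeR adjusted p = 0.0204) and stood at 0.11 on HFD. The median of the list was 0.44 on chow and -0.31 on HFD. The summed level of 6 markers of dividing cells had medians of 9.63 CPM in WT and 13.6 CPM in LKO on chow and of 16.7 and 11.6 CPM on HFD, and none of them passed between genotypes (edgeR, with 1 on chow and 0 on HFD at an unadjusted p below 0.05). Of 15 planar cell polarity genes beside Celsr2, 2 rose and 2 fell on chow (26.7%) and 1 fell on HFD (6.67%). The Wnt receptor Fzd6 (0.72, SE 0.208, edgeR adjusted p = 0.0169) and the core polarity protein Vangl1 (0.47, SE 0.149, adjusted p = 0.0284) rose on chow and stood at 0.40 and 0.29 on HFD. Celsr1, the paralogue of Celsr2, fell on chow (-1.0, SE 0.213, adjusted p = 0.00279) and the signal transducer Dvl3 fell on both diets (-0.29, adjusted p = 0.0225, and -0.51, adjusted p = 0.000477). Of 19 p53 targets beside Psrc1, 16 rose and 1 fell on chow (89.5%) and 16 rose and 0 fell on HFD (84.2%), with medians of 1.41 and 1.58. That p53 targets were higher in these LKO libraries was known when the list was set, so the count is no independent evidence.

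Of 16 subunits of the 20S proteasome beside Psma5, 4 rose on chow (25%, about the share of all genes) and 0 passed on HFD (edgeR, with 7 and 2 at an unadjusted p below 0.05), with medians of 0.24 and 0.06. The 4 were Psmb5 (0.51), Psmb10 (0.50), Psmb8 (0.45) and Psmb4 (0.34), of which Psmb8 and Psmb10 belong to the immunoproteasome. Of 17 genes of the SAGA coactivator and the ataxin 7 family beside Atxn7l2, 2 rose and 4 fell on chow (35.3%) and 1 rose and 3 fell on HFD (23.5%). The acetyltransferase Kat2b fell on both diets (-0.72, adjusted p = 0.000208, and -0.58, adjusted p = 0.00176), while Atxn7l1, a paralogue of Atxn7l2, rose on both (0.37, adjusted p = 0.0400, and 0.58, adjusted p = 0.00339).

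The genes whose pattern over the 16 libraries was most like that of Psrc1 were Ly6a (Pearson r = 0.990), Ifi27 (0.989), Tmem43 (0.988), Phlda3 (0.986) and Sgce (0.985), of 12754 genes compared on log2 CPM. For Sort1 they were Neto2 (0.971), Slc1a1 (0.963), Hdc (0.961), Atp6v0e2 (0.960) and Micall2 (0.958). These values describe libraries that share the genotype difference. Within the 8 WT libraries, r with Psrc1 ran from 0.362 (Phlda3) to 0.848 (Ifi27), and within the 8 LKO libraries from -0.405 (Ifi27) to 0.900 (Sgce). For Sort1 it ran from 0.515 (Micall2) to 0.805 (Neto2) within WT and from -0.468 (Atp6v0e2) to 0.687 (Micall2) within LKO. For Celsr2 the leading genes were Ntng2 (0.893), Cbx6 (0.843) and Zzz3 (0.828), and here r was of similar size within WT (0.889, 0.869 and 0.744) and within LKO (0.734, 0.765 and 0.739). None of the 10 genes named for Psrc1 and Sort1 or the 3 named for Celsr2 lies within 500 kb of the locus.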

How the data were processed

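Poly(A) RNA from 16 liver libraries was sequenced as paired reads. Both tables hold estimated counts by gene symbol as the authors deposited them, with no normalisation, and 51.1% of values were whole numbers (tolerance 1e-06). The submitters' processing notes name mm10, Bowtie2 and DESeq2 without versions, and the counting tool and annotation are not given in the sources used here. In the second table the chow columns stood 1 row below their genes: moving them up raised the number of genes whose chow values equal those of the counts table from 1 to 15119. It was used for genes that are not in the counts table.

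Counts were rounded and fitted over all 16 libraries with edgeR 4.0.16 in R 4.3.3 (TMM library sizes, filterByExpr, robust quasi-likelihood test, 1 mean per group), which kept 14434 genes. A gene was called at a 2-sided Benjamini-Hochberg adjusted p below 0.05 over all of them. CPM are TMM-scaled. RPKM use GENCODE M21 exon lengths. Intervals are exact at 95%. Fits were tested on simulated data. Likeness used log2(CPM + 0.1) of genes with a mean of at least 1 CPM.

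The members, lists and rules were chosen with earlier results of these data known. Named were the members, Arglu1, genes within 500 kb, the 5 genes most like Psrc1, Sort1 and Celsr2, and up to 4 called genes with the lowest p of each list. Same-numbered libraries were not paired: 5 of 24 correlations of their deviations exceeded 0.1 (median -0.0178). Alternatives were DESeq2 1.42.0, scaling by upper quartiles or by the size factors of DESeq2, limma 3.58.1 voom with quality weights, a minimum mean count of 50 or no filter, only the groups compared, a replicate block, the second table, a window of 1000 kb, a prior count of 2 and leaving out each library. The fits without LKO chow libraries 1 and 2 or without 3 and 4, and with the unfiltered second table, were chosen after seeing the data.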

Additional observations from a re-analysis of the deposited data

Results flagged for a closer look

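Values that stood far from the other 3 libraries of their group in a Dixon test of the gap were looked for in the 6 members, the 23 tested neighbours, Sypl2 and Gpr61. Of 122 groups of 4 libraries, 11 held such a value (9.02%), where chance alone gives about 1 in 20, or 6.10 groups. None was in a member of the locus. Gstm3 was 191 CPM in WT HFD replicate 2 (next library 75.3 CPM) and 202 CPM in LKO HFD replicate 3 (next library 122 CPM). Gstm4 was 93.3 CPM in WT HFD replicate 2, where the next library had 74.7 CPM. Gnai3 was 136 CPM in WT chow replicate 3 (next library 116 CPM) and 108 CPM in LKO HFD replicate 1 (next library 106 CPM). Stxbp3 was 30.4 CPM in LKO chow replicate 3 (next library 28.8 CPM). Sypl2 was 0.452 CPM in WT HFD replicate 4 (next library 0.0492 CPM) and 1.83 CPM in LKO HFD replicate 2, the libraries with the highest summed level of striated muscle markers, where the other 3 libraries of the latter group were at 0. Gpr61 was 0.0483 CPM in WT chow replicate 4, 0.161 CPM in WT HFD replicate 3 and 0.0824 CPM in LKO HFD replicate 4, each the 1 library of its group above 0 and with few counts.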

How the results depend on the processing

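The genotype differences of Psrc1 (6.65 to 7.22 on chow, 5.23 to 5.88 on HFD) and Sort1 (2.30 to 2.71 and 1.90 to 2.43) kept their direction under all 29 alternatives, and none of the 13 neighbour differences that passed changed sign under those that gave it a value. Of 21 smaller member values, 7 changed sign under at least 1 alternative, such as the diet value of Celsr2 (-0.36 to 0.39) and Sort1 (-0.20 to 0.36) in WT and the genotype value of Atxn7l2 on chow (-0.18 to 0.52) and Psma5 on HFD (-0.04 to 0.04). Counts moved more, and the cause was not tested. On chow the genotype called 3565 genes, 2152 when only the 2 groups were fitted, 2373 without LKO chow libraries 3 and 4, 5036 without 1 and 2 and 2698 to 3919 when 1 library was left out. Its 8 called neighbours became 4, 5, 10 and 5 to 9, and 12 by limma voom. On HFD it called 2583 genes, 4519 by limma voom and 1977 to 2833 with 1 library left out. Its 4 neighbours became 7 by DESeq2, 10 by voom, 7 with only 2 groups, 8 without LKO chow libraries 1 and 2 and 3 to 6 with 1 library left out. Diet called 294 genes in WT, 706 by DESeq2, 485 by voom, 618 and 502 without LKO chow libraries 1 and 2 or 3 and 4, and 155 to 359 with 1 library left out. In LKO it called 320 genes, 787 by DESeq2, 2053 by voom, 188 with only 2 groups, 2768 and 179 without those pairs, and 111 to 656 with 1 left out. Its 1 called neighbour became 5 by voom, 6 without LKO chow libraries 1 and 2, and 1 to 2 with 1 left out. The interaction called 3 genes, 50 by DESeq2, 16 by voom, 0 at a mean count of at least 50, 1264 without LKO chow libraries 1 and 2 (with 3 neighbours instead of 0), and 0 to 9 with 1 left out. With a replicate block it called 0 genes, and the genotype called 3257 genes on chow and 2330 on HFD. Diet counts with the block were 223 in WT and 231 in LKO, and Stxbp3 was the 1 named neighbour that lost its call on chow (adjusted p = 0.0591). Psrc1 under the block stood at 7.04 on chow and 5.53 on HFD. Depth limits Mybphl, Celsr2 and the WT level of Psrc1.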

Other observations

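The pattern of Sgce, a sarcoglycan gene on chromosome 6, followed that of Psrc1 between genotypes (log2 fold change 2.09 on chow and 1.63 on HFD) and also within the 8 LKO libraries (r = 0.900) and the 8 WT libraries (r = 0.583). It was noticed after its values were seen, and r over 8 libraries that share 2 diets is a description. Among the 40 RefSeq promoters of the region, which do not include Sort1, 20 held CCAAT and 22 held GGGCGG, against 37.4% and 35.7% of all promoters.

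Within each genotype, the levels of Psrc1, Sort1 and Celsr2 were set against each other over the 8 libraries of both diets, 6 pairs in all. No pair passed after adjustment. The lowest p was that of Sort1 with Celsr2 in WT (Pearson r = 0.718, exact permutation p = 0.0488, adjusted p = 0.293, Spearman rho = 0.548, exact p = 0.171), and r was 0.542 without the 2 libraries farthest from the median of Sort1. Leaving out the 2 libraries farthest from the median of Psrc1 moved r in WT from -0.234 to 0.793 with Sort1 and from 0.0746 to 0.758 with Celsr2, and r with Sort1 in LKO from 0.296 to 0.661, so these values rest on which libraries are included.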
